A study of Mus musculus with 2 samples.

Results

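The genes described here are 36 macrophage, phagocyte and general leukocyte genes, taken by name from a fixed list of symbols that were matched to the Ensembl identifiers of the tables, out of 43346 Ensembl genes measured. All 36 were found, and they lie on 17 chromosomes. Total RNA of whole mouse limb at embryonic day 13.5 (E13.5) had been sequenced in 2 libraries, from healthy embryos of the B6NCrl strain, with males and females pooled. The labels number the libraries as biological replicates 1 and 2 and give them separate biosamples under a shared donor entry, so the spread between them may in part be technical. Each library was made from 10 ng of RNA longer than 200 nt with ERCC spike-ins, synthetic RNAs added in known amounts. Whether the tissue was forelimb, hindlimb or a mixture is not stated, and with 1 group there was no contrast between conditions and no p-value.

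Macrophages are phagocytes of the myeloid lineage. In the mouse embryo the first ones arise from the yolk sac and enter tissues with the circulation before bone marrow exists. Their survival depends on the receptor Csf1r, which binds the growth factors Csf1 and Il34, and their identity on the transcription factor PU.1, encoded by Spi1. In the limb they are best known for taking up dying cells, and the machinery for that includes complement C1q, the TAM receptors with their bridging ligand Gas6, and lysosomal enzymes.

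Replicate 1 held 31253053 expected counts over Ensembl genes and replicate 2 held 42301448, and spike-ins took 2.11% and 2.07% of all counts. An expected count is a model-based estimate of reads per gene, in which reads matching several transcripts are divided among them. A level of 3 counts, the most that a count of 0 allows, corresponded to 0.0960 and 0.0709 CPM in replicates 1 and 2, for counting error alone. The limb label was checked on 5 mesenchyme genes, of which Prrx1 (132.83 and 148.87 TPM), Hoxd13 (46.01 and 40.38 TPM) and both the forelimb factor Tbx5 (25.22 and 36.54 TPM) and the hindlimb factor Pitx1 (90.38 and 73.82 TPM) were present in replicates 1 and 2. Tbx5 was higher in replicate 2, and Pitx1 and Hoxd13 were higher in replicate 1, so that 3 of the 5 were past the spread between libraries described below, where 3.57% of all genes were, and the part of this in any difference between them was not tested. Below, values joined by "and" are those of replicate 1 and replicate 2 in that order, ± stands for the SD of the 2 libraries (n = 2), and ratios between libraries are replicate 2 over replicate 1.

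Most of the listed genes were present in the limb at low to middle abundance. At least 1 TPM, a length-scaled abundance with the same total in each library, was reached in both libraries by 32 of the 36 genes (88.9%), where 34.6% of all genes and 61.0% of protein-coding genes reached it. At least 10 TPM was reached in both by 15 of the 36 (41.7%), against a background of 40.9% of protein-coding genes. The list was chosen with earlier results of these data known, so these shares describe the list and are not a test of it. Their median was 8.14 TPM, compared with 4.79 TPM for all protein-coding genes and 20.6 TPM for the 13100 protein-coding genes present in both libraries. The 4 members below 1 TPM in at least 1 library were Fcgr1, Il34, Timd4 and Cd163. In whole tissue, fewer cells of a type and less RNA per cell cannot be told apart, which holds for every level given here.

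All members together took 0.0689% and 0.0721% of the counts of the libraries. Apoe, which carries lipid, made up 30.3% and 29.6% of their summed TPM. Without Apoe and Axl, both of which are also made by cells other than leukocytes, the members took 0.0403% and 0.0422% of the counts. That remainder is not a leukocyte share, since Csf1, Gas6, Mertk, Maf, Stab1 and Mrc1 are also known from other cells. On the plot of TPM by role the points of each gene lay close together except for the rarest.

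**Figure D1:**
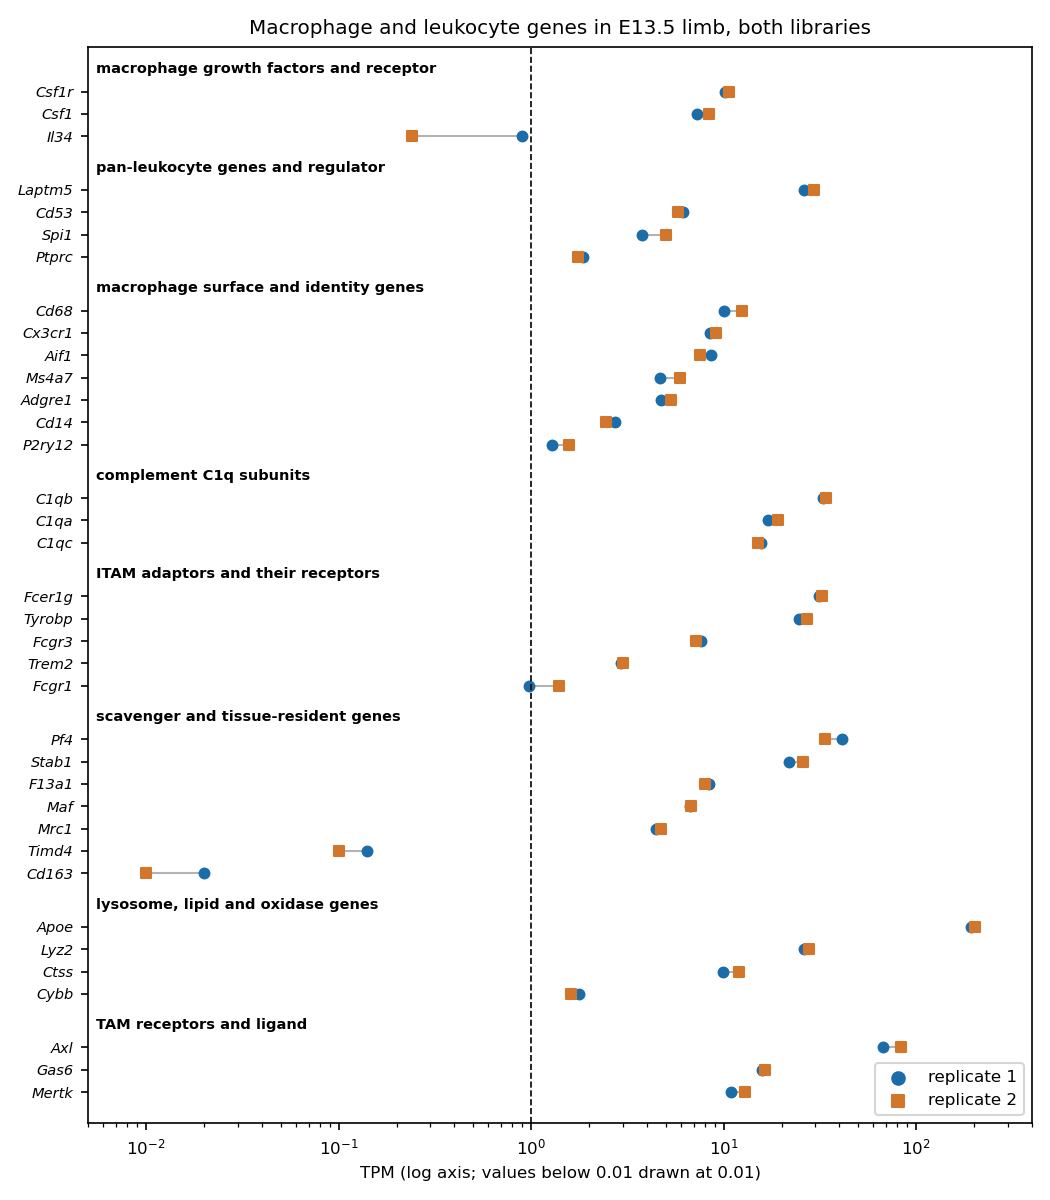
TPM of the 36 genes on a log axis, grouped by role, with replicate 1 as circles and replicate 2 as squares joined by a line; the dashed line marks 1 TPM. Of the 36 genes, 32 lie at or above 1 TPM in both libraries, Apoe is highest, and Il34, Timd4 and Cd163 lie lowest.

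Sorted by mean TPM, 19 of the 35 neighbouring steps separated genes whose libraries did not overlap. At the top of the order, Apoe (197 ± 5.78 TPM), Axl (75.5 ± 11.4 TPM), Pf4 (37.4 ± 5.61 TPM), C1qb (33.5 ± 0.806 TPM), Fcer1g (32.0 ± 0.841 TPM) and Laptm5 (27.9 ± 2.27 TPM) followed each other. Among these only Pf4 and C1qb overlapped, since Pf4 had 41.4 and 33.47 TPM and C1qb had 32.95 and 34.09 TPM.

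The growth factor receptor and its ligands were present at unequal levels. Csf1r, the receptor tyrosine kinase that macrophages need to survive, had 10.14 and 10.63 TPM, or 971.9 and 1353.34 expected counts. Csf1, the ligand known from mesenchymal and endothelial cells, had 7.31 and 8.42 TPM. Il34, the second ligand, known from neurons and skin, had 0.9 and 0.24 TPM from 9 and 11 counts. In TPM, both libraries thus placed Csf1r and Csf1 close together and Il34 far below either.

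Csf1r over Csf1 gave a log2 ratio of TPM + 0.1 of 0.40 ± 0.09, within the spread of genes of like abundance. That spread was taken as 2 times the replicate SDs of the 500 genes nearest in abundance to each partner, combined for the pair. In expected counts, which are not scaled by length, Csf1r over Csf1 gave 0.84 and passed it. Csf1 over Il34 gave 3.77 ± 1.24, a 13.6-fold excess past the spread, and Csf1r over Il34 gave 4.17 ± 1.15. The size of the Il34 ratios depended on length, since all Il34 reads of replicate 1 were assigned to the noncoding models Il34-205 and Il34-202 and all those of replicate 2 to the coding models Il34-201 and Il34-204. Per length of the longest transcript, a measure added after the data were seen, Csf1 exceeded Il34 20.6-fold.

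Csf1 is spliced into forms that differ in exon 6. Forms with the whole exon encode a secreted precursor, and the form that lacks most of it encodes a ligand held at the cell surface. The exon runs over chr3:107748154-107749169 on the minus strand (mm10), and Csf1-202 lacks 885 nt of it, chr3:107748285-107749169, within the coding sequence. The junction of exons 5 and 6 is shown because it differs between the forms, with exon 6 bases in capitals. The sequences are from GENCODE M21 transcripts on the minus strand. The first spans chr3:107749150-107750330 and the second chr3:107748265-107750330.
Csf1-201: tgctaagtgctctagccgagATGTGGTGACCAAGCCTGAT
Csf1-202: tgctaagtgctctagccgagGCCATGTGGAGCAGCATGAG
The forms with the whole exon, Csf1-201 and Csf1-203, had 4.19 and 4.69 TPM together, and the short form Csf1-202 had 2.85 and 3.22 TPM. Whole-exon forms therefore held 59.5% and 59.3% of the TPM of both kinds, nearly the same share in each library. In expected counts their share was 65.2% and 66.3%.

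The pan-leukocyte genes and the myeloid regulator were all present in both libraries, over a wide range. Laptm5, a lysosomal membrane protein of blood cells, had 26.3 and 29.51 TPM. Cd53, a tetraspanin of leukocytes, had 6.16 and 5.83 TPM. Ptprc, which encodes the leukocyte common antigen CD45, had 1.86 and 1.75 TPM, so the gene that defines leukocytes was the lowest of the 4. Spi1 had 3.78 and 5.01 TPM from 113 and 160 counts.

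Ptprc over Cd53 gave a log2 ratio of -1.68 ± 0.00, within a wide spread, and -2.25 per length of the longest transcript, where it passed. Spi1 over Maf, a transcription factor that resident macrophages share with limb cartilage and other tissues, gave -0.62 ± 0.27 and was within the spread. Maf had 6.69 and 6.78 TPM.

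CD45 is spliced differently among leukocytes by use of the exons known as A, B and C, which are exons 4, 5 and 6 of the gene on the minus strand of chromosome 1. Both long coding models with counts in the limb lacked all 3. The exons of the other models were not examined. Among these, the short coding model Ptprc-213 held 18.91% and 16.97% of the TPM from 4.43 and 4.95 counts. Their junctions after exon 3 are shown because they define these forms, with the bases of the next kept exon in capitals; Ptprc-203 goes on to exon 7 (chr1:138117006-138126322) and Ptprc-204 to exon 8 (chr1:138115623-138126322).
Ptprc-203: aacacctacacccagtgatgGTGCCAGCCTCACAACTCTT
Ptprc-204: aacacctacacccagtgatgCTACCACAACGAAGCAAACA
Ptprc-203 had 95.41 and 24.43 expected counts, and Ptprc-204 had 0 and 94.17. The estimated split between them was thus opposite in the libraries. Exon 7 has 72 nt, and all Ptprc models together had 143 and 185 expected counts. A change of form between the libraries is therefore not shown. The model with the longest coding sequence, Ptprc-207 with 3879 nt, was listed at 0 in both. Noncoding models took 30.2% and 33.2% of the Ptprc counts.

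Macrophage surface and identity genes were present in both libraries in all 7 cases, between 1.28 and 12.42 TPM. Cd68, a lysosomal glycoprotein of phagocytes, was highest with 10.07 and 12.42 TPM. The fractalkine receptor Cx3cr1, which marks embryonic macrophage precursors and microglia, had 8.47 and 9.18 TPM. Aif1, an actin-binding protein also called Iba1, had 8.63 and 7.55 TPM. The libraries of these 3 genes lay within a narrow band, and no order held between Cx3cr1 and Aif1.

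Adgre1, the adhesion receptor known as F4/80, had 4.73 and 5.34 TPM, and Ms4a7, a tetraspan membrane protein of resident macrophages, had 4.68 and 5.91 TPM. Cd14, a co-receptor for lipopolysaccharide, had 2.74 and 2.45 TPM. P2ry12, a purinergic receptor of microglia and platelets, had 1.28 and 1.58 TPM from 55 and 98 counts. These 4 genes lay below Cd68 in both libraries.

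Cd68 over Adgre1 gave a log2 ratio of 1.14 ± 0.09, just within 2 times its combined spread of 0.58. It passed with 1 TPM added (1.02), in posterior mean TPM (1.15) and by the median absolute deviation, but turned to -0.62 in expected counts, which are not scaled by length. Csf1r and Cx3cr1 did not differ past the spread, with a ratio of 0.23 ± 0.03. Cx3cl1, the ligand of Cx3cr1, had 4.74 and 5.15 TPM, and Cx3cl1 over Cx3cr1 gave -0.82 ± 0.00, also within the spread. Both of the latter passed in expected counts, at 0.75 for Csf1r over Cx3cr1 and -0.88 for Cx3cl1 over Cx3cr1. For these 3 pairs a ratio within the spread does not show equal levels.

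The complement C1q subunits were among the most abundant members. C1q is the recognition molecule of the classical pathway, built from equal numbers of A, B and C chains, and macrophages are its main source. The genes C1qa (ENSMUSG00000036887), C1qb (ENSMUSG00000036905) and C1qc (ENSMUSG00000036896) lie side by side on the minus strand of chromosome 4, at chr4:136895917-136898803, chr4:136880129-136886187 and chr4:136889804-136893065 (mm10). C1qb had 32.95 and 34.09 TPM, C1qa had 17.04 and 19.16 TPM, and C1qc had 15.58 and 15.09 TPM. In both libraries C1qb was highest and C1qc lowest.

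C1qb exceeded C1qa 1.85-fold (log2 0.89 ± 0.08) and C1qc 2.18-fold (log2 1.12 ± 0.07), both past the spread. C1qa over C1qc gave 0.24 ± 0.15, which was not. The transcripts are of similar length, 1040 nt for C1qa, 1088 nt for C1qb and 1203 nt for C1qc, and the order was the same per longest transcript, with levels on that scale of 43.8 for C1qb, 23.7 for C1qa and 20.0 for C1qc. The proteases that C1q binds were lower, with 1.61 and 1.52 TPM for C1s1 and 0.72 and 1.16 TPM for C1ra, while the inhibitor Serping1 had 21.05 and 25.01 TPM. C3, the central component, had 0.48 and 0.26 TPM, so the early recognition subunits were present without comparable levels of the later cascade. Of 11 complement genes outside the members, 7 were present in both libraries, and Cfd was listed at 0 in both.

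The ITAM adaptors, which pass on signals of activating receptors, stood above the receptors compared here, Trem2, Fcgr3 and Fcgr1. Fcer1g, the common gamma chain of Fc receptors, had 31.38 and 32.57 TPM. Tyrobp, also called DAP12, had 24.57 and 27.2 TPM. Trem2, a lipid receptor that signals through Tyrobp, had 2.92 and 3.0 TPM. The low-affinity IgG receptor Fcgr3 had 7.59 and 7.22 TPM, and the high-affinity receptor Fcgr1 had 0.98 and 1.39 TPM. Adaptor levels did not overlap receptor levels in either library.

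Tyrobp exceeded Trem2 8.48-fold (log2 3.08 ± 0.08), and Fcer1g exceeded Fcgr3 4.27-fold (log2 2.10 ± 0.09). In expected counts the excess was smaller, 3.54-fold for Tyrobp over Trem2 and 1.98-fold for Fcer1g over Fcgr3. Tyrobp over Trem2 was 32.5-fold per longest transcript. The reason is that 1 Trem2 model of 4784 nt is far longer than the mean length of 1185.26 nt that the deposited TPM of replicate 1 used. Fcgr3 exceeded Fcgr1 5.91-fold (log2 2.56 ± 0.38). The adaptors themselves, Tyrobp over Fcer1g at -0.31 ± 0.07, stayed within the spread. Fcgr genes are close paralogs whose reads can be shared, and Fcgr3 had a fractional count of 197.4 in replicate 1, so its level is less certain. Of 12 further ITAM signalling and Fc receptor genes, 8 were present in both, led by the kinase Lyn (8.96 and 9.81 TPM), while the kinase Fgr was lowest at 0.21 and 0.16 TPM.

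Scavenger and tissue-resident genes split into present and nearly missing ones. Stab1, a scavenger receptor of macrophages and sinusoidal endothelium, had 21.78 and 25.81 TPM. Mrc1, the mannose receptor CD206, had 4.47 and 4.75 TPM, and F13a1, the A chain of coagulation factor XIII, had 8.35 and 8.02 TPM. Timd4, a phosphatidylserine receptor of long-lived resident macrophages, had 0.14 and 0.1 TPM from 6 counts in each library. Cd163, the haemoglobin scavenger receptor, had 2 and 0 counts. Timd4 was thus above the level of 3 counts but present only as a trace, and Cd163 lay below that level in both libraries.

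The level of Stab1 depended on how its transcripts were modelled. The 242 nt noncoding model Stab1-202 held 29.71% and 29.43% of the TPM from 19.28 and 30.05 counts, while the full-length coding model Stab1-201 of 7999 nt held 16.6% and 15.9% with 595 and 897.13 counts. Noncoding models took 37.7% and 40.1% of the Stab1 counts. Mrc1 over Stab1 gave -2.34 ± 0.11 in TPM, past the spread, and -0.52 per longest transcript, no longer past it. A statement that Stab1 exceeded Mrc1 therefore rests on short models.

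Mrc1 and Stab1 are also known from endothelial cells, and all 10 endothelial genes were present in both libraries, with sums of 309 and 312 TPM. Cdh5, the endothelial cadherin, had 21.97 and 21.25 TPM. Cdh5 exceeded Mrc1 4.61-fold, and Csf1r over Cdh5 gave -1.05 ± 0.08, both past the spread. The part of endothelial RNA in Mrc1 and Stab1 was not tested.

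Pf4, a chemokine of platelets that embryonic macrophages also contain, had 41.4 and 33.47 TPM from 420 and 451 counts. Its deposited TPM intervals, whose level is not stated, ran over 36.6 to 44.3 in replicate 1 and 29.8 to 35.9 in replicate 2 and did not overlap. On scaled counts it was lower in replicate 2 by a log2 ratio of -0.33, inside 2 local SDs (0.37) but outside when the spread was taken from the median absolute deviation, an alternative chosen after seeing the data.

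The 9 markers of megakaryocytes and platelets had a summed TPM of 18.7 and 13.3, 4 of the 9 were present in both libraries, none was at 0 in both, and none of the 8 with enough counts differed between the libraries past the spread. Ppbp, a platelet chemokine beside Pf4, had 5.53 and 3.39 TPM, and Itga2b, the platelet integrin chain, had 5.12 and 3.68 TPM. Gp1ba, a platelet receptor chain, was lowest with 0.15 and 0.19 TPM. Pf4 exceeded Ppbp 8.42-fold (log2 3.07 ± 0.27), past the spread. The part of these cells in the level of Pf4 was not tested.

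The lysosomal, lipid and oxidase genes held the highest member. Apoe had 193.16 and 201.34 TPM from 4154 and 5792 counts. Lyz2, the lysozyme of macrophages and granulocytes, had 26.08 and 27.81 TPM, with fractional counts of 633.98 and 897.95, and reads shared with its near-identical paralog Lyz1 leave this level uncertain. The cysteine protease Ctss, which trims antigens in phagocytes, had 9.94 and 11.97 TPM. Cybb, the catalytic subunit of the phagocyte NADPH oxidase, had 1.77 and 1.61 TPM. The order Apoe, Lyz2, Ctss, Cybb held in both libraries.

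Apoe exceeded Lyz2 7.30-fold (log2 2.87 ± 0.02) and Lyz2 exceeded Ctss 2.46-fold (log2 1.30 ± 0.12). Cyba, the partner subunit of Cybb that other oxidases share, had 110.57 and 115.27 TPM and exceeded it 63.2-fold. The cytosolic oxidase subunits Ncf1 and Ncf4 had mean levels of 2.26 and 2.50 TPM, near that of Cybb, whereas Rac1, which nearly every cell uses, had 265.33 and 275.17 TPM. All 13 general lysosomal genes were present, with a median of 123 TPM, led by Cst3 (334.32 and 321.62 TPM), Lamp1, Ctsd and Ctsl. Ctss thus lay below every one of these widely used lysosomal genes.

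The TAM receptors and ligand were abundant, and they are known from mesenchyme and endothelium as well as macrophages. Axl had 67.44 and 83.5 TPM, Mertk had 10.89 and 12.99 TPM, and Gas6, which bridges them to phosphatidylserine on dying cells, had 15.86 and 16.35 TPM. The third receptor, Tyro3, had 24.47 and 26.83 TPM, and the second ligand, Pros1, had 26.76 and 28.35 TPM. The receptors kept the order Axl, Tyro3, Mertk in both libraries, and Pros1 stood above Gas6.

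Axl exceeded Mertk 6.26-fold (log2 2.65 ± 0.04) and Tyro3 2.92-fold (log2 1.55 ± 0.12). Gas6 over Pros1 gave -0.77 ± 0.03 and Gas6 over Axl gave -2.21 ± 0.19, all 4 past the spread. The deposited TPM intervals of Axl did not overlap, at 60.5 to 72.7 and 76.9 to 88.5, while its scaled counts differed by a log2 ratio of only 0.09. The TPM gap came with the 455 nt retained-intron model Axl-207, which had 11.77 and 21.21 TPM from 87.28 and 208.93 counts. The main coding model Axl-201 had 49.94 and 54.06 TPM.

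Axl has an alternative exon of 27 nt, exon 10 at chr7:25773099-25773125 on the minus strand (mm10), within its coding sequence. It is shown in capitals with its flanks, beside the junction that skips it, where the bases after the junction are in capitals; both span chr7:25770746-25773362.
Axl-201: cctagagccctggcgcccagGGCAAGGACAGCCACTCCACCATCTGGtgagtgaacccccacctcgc
Axl-202: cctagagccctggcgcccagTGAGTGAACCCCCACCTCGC
The model with the exon held 93.0% and 94.4% of the TPM of both forms. The one without it had 299.37 and 334.9 counts, so the model with the exon held most of the estimate in each library. These models, of 4265 nt and 3899 nt, differ by more than this exon. Which reads set the split was not examined.

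Of 15 partners of the TAM system and of uptake of dying cells, 13 were present in both, with a median of 27.6 TPM. The bridging protein Mfge8 (129.21 and 134.6 TPM), the receptor Lrp1 (101.5 and 105.42 TPM), the integrin chain Itgav (58.15 and 58.24 TPM) and Anxa1 (59.46 and 55.86 TPM) led, and all are used by mesenchymal cells too. The scavenger receptor Stab2, a paralog of Stab1, was lowest with 0.18 and 0.26 TPM.

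**Figure D2:**
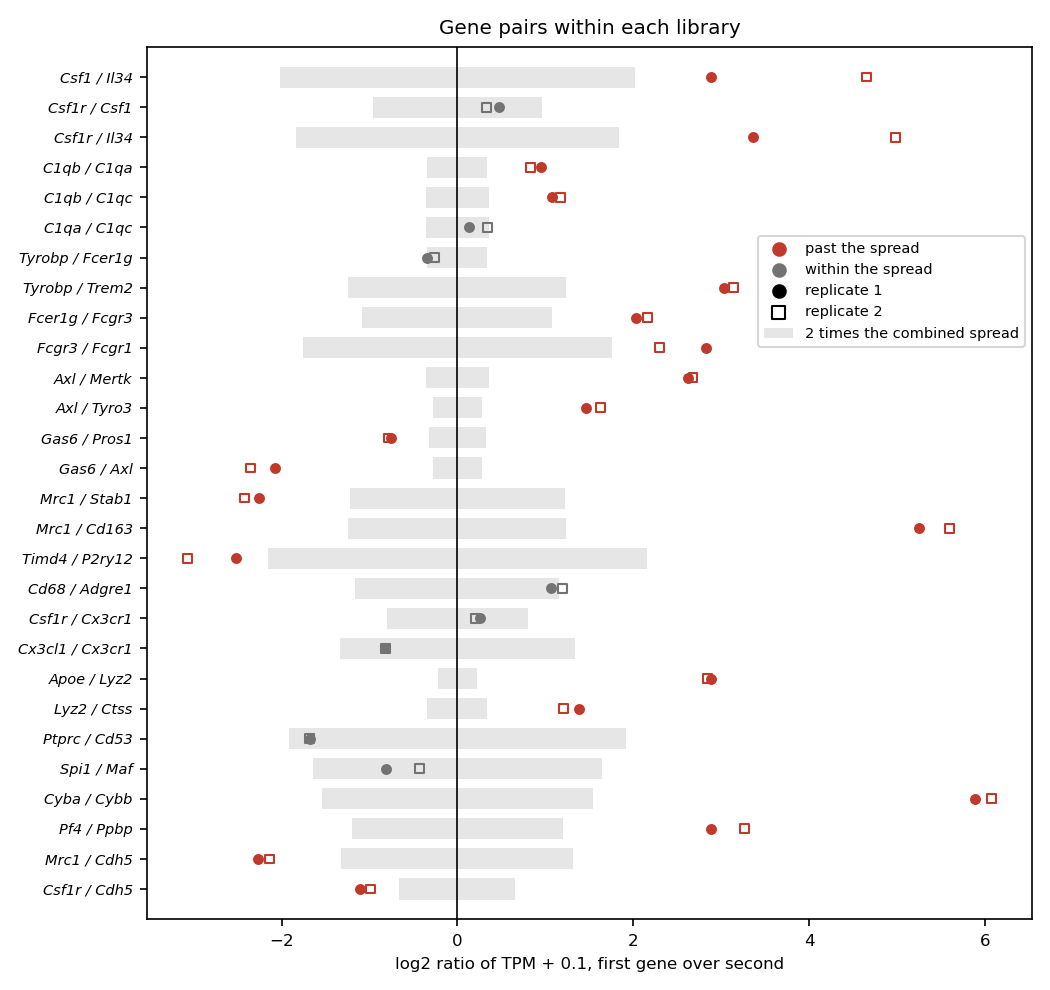
Log2 ratio of TPM + 0.1 of the first gene over the second for the gene pairs, 1 of the 29 not drawn, in replicate 1 (filled circles) and replicate 2 (open squares); grey bars span 2 times the combined spread of genes of like abundance. Red marks pairs past the spread, most of them with the first gene higher, and grey the 8 within it.

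Of the 29 pairs compared, 21 passed the spread: the first gene was higher in 14 of these and the second in 7. No such share was computed for pairs of other genes, so these counts describe only the pairs chosen. The 8 pairs within it included Cd68 with Adgre1, Csf1r with Cx3cr1, and the adaptors Tyrobp with Fcer1g. Other pairs of like function passed it, among them C1qb with C1qa, Axl with Mertk, and Fcgr3 with Fcgr1. The widest ratios were those with a rare partner, namely Cybb, Cd163, Il34 and Trem2.

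Between the libraries the members differed little. Averaging the libraries, 34 members had 10 counts or more. Of these, 24 were higher in replicate 2 and 10 lower, none over 2-fold. The median log2 ratio of scaled counts was 0.07, against -0.00 for all 17982 genes tested, and the median size of the ratio was 0.11 against 0.10. Only Mertk lay beyond 2 times the local SD of the 500 genes nearest in count, 1 of 34, where 3.57% of all genes did so. Mertk had 948 and 1505 counts, and its log2 ratio of 0.23 lay just past 2 local SDs, which round to the same 0.23, so this call is a narrow one. The share of members is near the background.

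The deposited TPM intervals of the libraries did not overlap for 3 members, Pf4, Mertk and Axl, compared with 9.90% of genes tested. The largest ratio belonged to Fcgr1, 0.48 from 51 and 96 counts, whose counting interval of -0.03 to 1.00 included 0. P2ry12 followed with 0.40 from 55 and 98 counts. At these depths a difference of that size was not detectable.

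**Figure D3:**
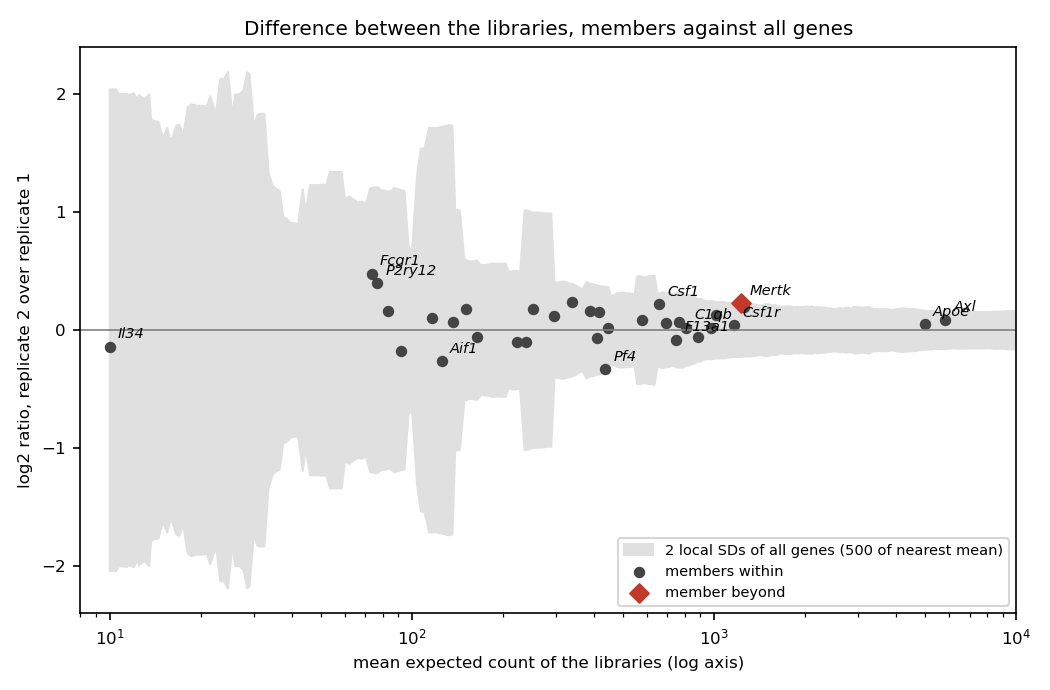
Log2 ratio of scaled expected counts, replicate 2 over replicate 1, against the mean count on a log axis for the 34 members tested; the grey band is 2 local SDs of all genes, whose width jumps at some counts. Mertk (red diamond, drawn over Stab1) lies at the edge of the band and every other member within it.

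Transcript use was mostly the same in both libraries. Of 22 members with more than 1 transcript model and a mean of at least 100 counts, 20 had the same leading model in both, where 92.2% of all such genes did. The exceptions were Ptprc, whose forms are given above, and Laptm5. Its coding models Laptm5-210 and Laptm5-207 held 47.51% and 44.26% of the TPM in replicate 1 and 37.34% and 38.34% in replicate 2. Their order in TPM thus changed within a small margin. In expected counts Laptm5-207 led in both libraries, with 74.2% and 64.8%, where Laptm5-210 had 19.9% and 15.7%.

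Apoe came mainly from Apoe-209 (82.2% and 78.86% of its TPM), followed by Apoe-206 (12.09% and 15.4%), and both carry a coding sequence of 933 nt. Cd68 came from the coding model Cd68-201 (68.91% and 56.31%) and the noncoding model Cd68-203 (28.66% and 37.02%). Maf came mainly from the single-exon model Maf-202 (76.95% and 69.95%), with the spliced model Maf-201 at 23.05% and 30.05%. Mertk, Fcer1g, C1qc and Mrc1 had over 90% of their TPM in 1 coding model in both libraries.

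**Figure D4:**
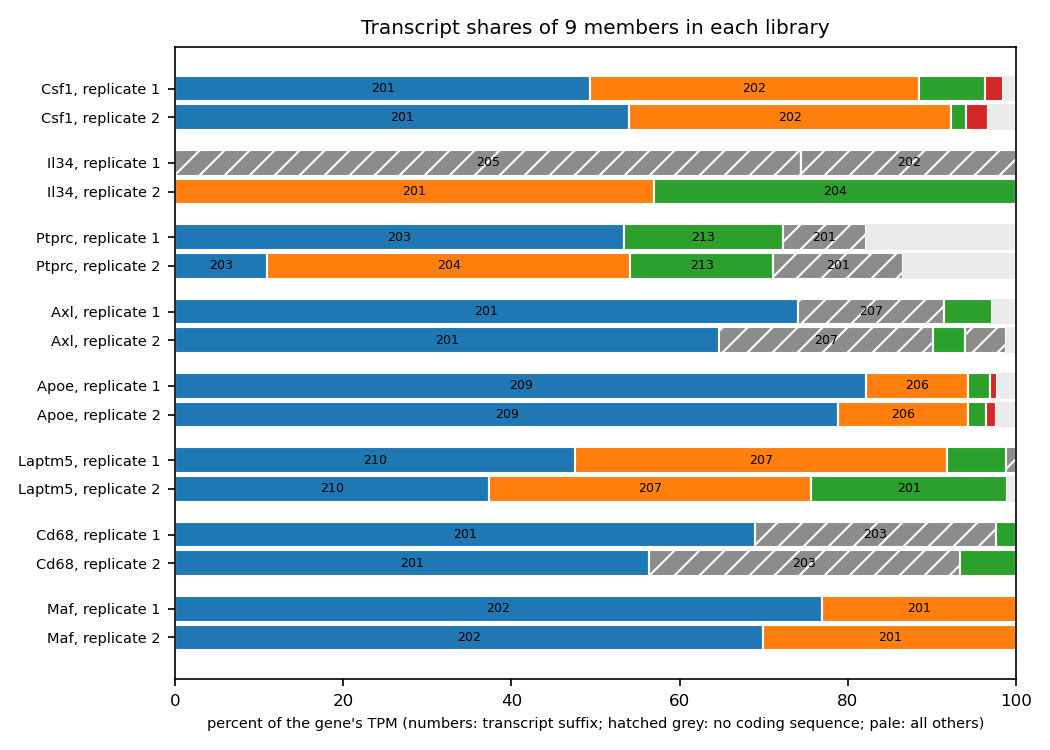
Percent of each gene's TPM held by its 4 leading transcript models in each library for Csf1, Il34, Ptprc, Axl, Apoe, Laptm5, Cd68 and Maf. Numbers give the transcript suffix, with hatched grey for models without a coding sequence and pale grey for all others. Csf1, Apoe and Maf have the same leading model in both libraries, while Il34, Ptprc and Laptm5 change theirs.

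Promoters of the members were examined for the letters bound by PU.1, a factor whose purine-rich site holds GAGGAA. RefSeq promoter windows (GRCm38.p6, 250 bases before to 50 after the start) were searched on both strands for 28 of the 36 genes, 34 windows in all. The other 8 members were not covered. The windows of a whole chromosome were left out of the search by choice, for the members and for the background. Csf1r and Cd14 lie on that chromosome, so the shares below say nothing about the promoter of either. GAGGAA occurred in 22 of the 34 windows (64.7%) and in 28.3% of all 32851 windows searched. The longer GAGGAAGT, which contains it, occurred in 5 (14.7%) and in 3.20% of all windows. TATAAA occurred in 11.8% against 13.6%, TGACTCA in 2.94% against 5.20%, and CGCG in 2.94% against 38.0%, while the median number of CG pairs per window was 4.5 against 7.0. These motifs were chosen after the data were seen, and a match describes the window, not a bound site.

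The 5 windows with GAGGAAGT are shown in part because these genes carry the longest match and cover C1q, a tetraspanin, a protease, a coagulation factor and a chemokine; capitals mark the match, read as ACTTCCTC where it lies on the other strand. The stretches are C1qc at chr4:136893052-136893159 (minus), Cd53 at chr3:106790120-106790193 (minus), Ctss at chr3:95526734-95526815 (plus), F13a1 at chr13:37049184-37049249 (minus) and Pf4 at chr5:90772375-90772464 (plus), each printed 5′ to 3′ on the gene's strand and, where it reaches past the start site, stopped short of the end of the searched window.
C1qc: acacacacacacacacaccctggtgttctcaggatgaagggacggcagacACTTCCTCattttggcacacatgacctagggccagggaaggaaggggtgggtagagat
Cd53: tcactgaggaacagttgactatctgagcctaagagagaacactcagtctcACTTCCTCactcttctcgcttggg
Ctss: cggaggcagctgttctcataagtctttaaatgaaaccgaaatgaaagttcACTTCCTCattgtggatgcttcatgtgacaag
F13a1: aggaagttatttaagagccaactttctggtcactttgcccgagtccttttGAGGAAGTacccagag
Pf4: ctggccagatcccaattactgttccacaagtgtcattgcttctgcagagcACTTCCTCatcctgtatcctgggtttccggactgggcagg
Counted from the first transcribed base as 0, the match began at -195 in C1qc, at -10 in Pf4, at -2 in Ctss, at 6 in Cd53 and at 14 in F13a1. The levels of these genes ran from that of Cd53 (6.16 and 5.83 TPM) to that of Pf4 (41.4 and 33.47 TPM).

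Other lists of blood cell genes were counted in the same way. For comparison, 61.0% of protein-coding genes were present in both libraries. The part of each cell type in the RNA was not tested. Of 15 further pan-leukocyte genes 14 were present in both libraries, with a median of 4.18 TPM, led by Arhgdib (62.17 and 60.99 TPM), Lsp1, Coro1a and Lcp1, and with Was lowest (0.33 and 0.13 TPM). Of 15 further resident macrophage genes 6 were present, among them Csf2ra (17.86 and 17.55 TPM), Hpgds and Cbr2. The other 9 were below 1 TPM in at least 1 library, and the median of the list was 0.970 TPM. Among these were Folr2 (1.37 and 0.66 TPM), a folate receptor, the integrin chain Itgam (1.04 and 0.9 TPM), the scavenger receptor Msr1 (0.72 and 0.89 TPM) and the sialic acid receptor Siglec1 (0.16 and 0.13 TPM). The Kupffer cell genes Vsig4 and Clec4f had 0 and 0 counts and 1 and 0 counts.

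The microglia list was present in 7 of 9 cases, but its highest genes are not specific to microglia. Tmem119, known from bone-forming cells as well as microglia, had 196.93 and 184.15 TPM, Olfml3 had 57.75 and 58.15 TPM, and Sall1, a limb mesenchyme factor, had 12.71 and 11.05 TPM. Fcrls, an Fc receptor-like gene of macrophages and microglia, had 10.27 and 11.74 TPM, near Csf1r. Siglech was lowest with 0.98 and 0.49 TPM. Tmem119, Olfml3 and Sall1 lay above Csf1r and P2ry12 in both libraries.

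Mast cell genes were led by Cpa3 (26.16 and 23.29 TPM), Cma1 (9.9 and 8.93 TPM) and Hdc (3.21 and 4.32 TPM), with sums of 41.2 and 38.9 TPM over 7 genes, and Fcer1a was lowest with 1 and 0 counts. Mast cells also use Fcer1g, and their part in its level was not tested. Neutrophil genes were present in 3 of 12 cases (Prtn3 at 9.37 and 9.2 TPM, S100a8 and S100a9), with sums of 24.1 and 23.1 TPM. Mpo had 1.79 and 0.86 TPM, lower in replicate 2 past the spread, and Retnlg had 2 and 0 counts. Lyz2 and Cybb are shared with these cells, and their part in either was not tested.

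Monocyte and dendritic cell genes were present in 7 of 11 cases, led by Cd74 (5.83 and 6.32 TPM), Zbtb46, Plac8 and H2-Ab1, and the dendritic integrin Itgax had 0 and 1 counts. Of 14 lymphocyte genes only Cd79b passed 1 TPM in both (1.37 and 2.44 TPM), the median was 0.0700 TPM, and Ncr1 and Pax5 had no count in either library. Osteoclast genes were present in 4 of 10 cases, but Nfatc1 (35.67 and 38.95 TPM) and Ctsk (31.55 and 27.49 TPM) are made by mesenchyme too. Acp5, the tartrate-resistant phosphatase, had 5.42 and 6.57 TPM, and Mmp9 had 4.66 and 5.92 TPM. The fusion gene Ocstamp had 2 and 4 counts. Most lymphocyte genes and the osteoclast fusion gene were thus at or near 0.

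Transcription factors of the myeloid lineage were present in 11 of 12 cases, led by Fli1 (31.36 and 28.41 TPM) and including Batf3 and Klf4, with Runx1 at 4.32 and 3.94 TPM, Irf8 at 4.58 and 3.62 TPM and Gfi1, a granulocyte factor, lowest at 0.08 and 0.06 TPM. Chemokines and their receptors were present in 7 of 9 cases, led by Cx3cl1, Ccl2 (3.87 and 4.36 TPM), Ccl12 and Ccr1. Of 10 inflammatory mediators only Ccl3 was present in both (1.37 and 1.3 TPM), the median was 0.230 TPM, and Il12b was lowest with 1 and 5 counts. Il1b had 1 and 9 counts and Tnf 7 and 11.

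**Figure D5:**
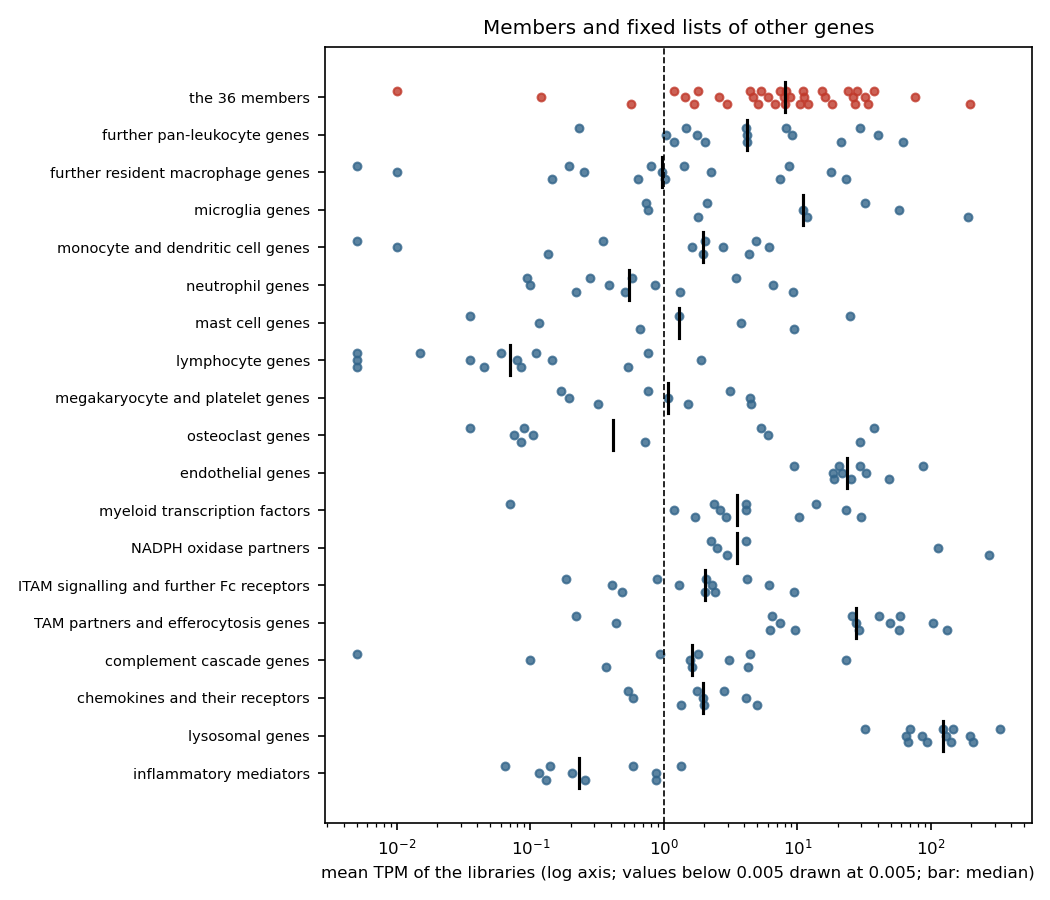
Mean TPM of the libraries on a log axis for each gene of the 36 members and of 18 other lists, with a bar at each list's median and a dashed line at 1 TPM. Medians range from 0.0700 TPM for lymphocyte genes to 123 TPM for lysosomal genes, with the members at 8.14 TPM.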

How the data were processed

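Total RNA-seq of 2 E13.5 limb libraries was used as deposited. The expected counts in the authors' gene and transcript tables are estimates, with shared reads divided among transcripts. The deposited TPM, posterior mean TPM and FPKM scale them by effective length, IsoPct is the percent of a gene's TPM held by a transcript, and the bounds of the TPM interval (signal columns) have no stated level, per the file headers. Reads were aligned to mm10 with GENCODE M4 annotation, per the text deposited with the tables; aligner, quantifier and any strand setting were not given in the sources used here, so antisense reads cannot be told apart. Positions and transcript names came from GENCODE M21, which held 97.9% of the transcripts.

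Counts were scaled by TMM (edgeR 4.0.16, R 4.3.3; DESeq2 1.42.0 as alternative) after leaving out spike-ins and 26248 rows with bare numbers as identifiers. Ratios used Python 3.11.15 (numpy 2.4.6, pandas 2.3.3), with 0.5 added to scaled counts and 0.1 to TPM, and a local SD over 500 genes; the step was tested on simulated data. Intervals and floors cover counting error only (95% exact binomial). The genes, lists, pairs and motifs were chosen with earlier results of these data known, and the 5 mesenchyme genes and the motifs after these data were seen. Named were all members, genes of the pairs, the highest and lowest of each list, and main transcripts; some listed genes are given as counts, and a few others were named after their values were seen. A few listed genes and 1 pair are counted but not reported here by name.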

Additional observations from a re-analysis of the deposited data

How the results depend on the processing

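No paired analysis was possible because the libraries form 1 group. The number of members present in both libraries stayed between 23 (at 5 TPM) and 33 over 8 alternatives. The median level of 8.14 TPM was 8.50 over members with at least 10 counts, 8.39 as posterior mean TPM, 5.26 in FPKM, 9.24 per longest transcript and 8.22 to 8.41 in single libraries. Members apart between the libraries numbered 2 with scaling by the spike-in total (Stab1 beside Mertk, with 4.34% of all genes) and 2 with the median absolute deviation (Pf4 beside Mertk, with 6.25%), a measure chosen after the data were seen, as was the longest transcript; under the other 6 settings Mertk alone was apart. Spike-in scaling shifts all ratios by 0.028 on the log2 scale. Pairs past the spread numbered 19 to 27 of 29, and no pair or library ratio called in the reported analysis changed sign. Cd68 over Adgre1, not called there at 1.14, was called with 1 TPM added, as posterior mean TPM, without replicate 1 and by the median absolute deviation, and was -0.62, uncalled, in expected counts. The median share of the leading transcript, 75.1% of TPM, was 88.3% in expected counts and 77.1% to 77.8% in single libraries, since short models weigh more in TPM. Counts limit Il34, Timd4 and Cd163, and with 2 libraries the SDs are rough.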
